A study of Mus musculus with 51 samples.

Results

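The genes described here are 8 that build the anchorage of an epithelium to its basement membrane: the laminin chain genes Lama3, Lama5, Lamb2, Lamb3 and Lamc1, the transmembrane collagen gene Col17a1, and the plakin genes Dst and Plec. They were taken by gene name from a count table of 52636 genes, in which each of the 8 symbols belonged to 1 row. The table held total RNA from sorted mouse epithelial cells in 51 libraries of 14 groups. All 8 genes passed the filter on low counts in every comparison, and none of their 408 values was 0.

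The groups were sorted on EpCAM, an epithelial surface protein, on a YFP reporter of Krt8 or on both. SmoM2 is a constantly active variant of Smoothened, which transduces Hedgehog signals, and the genotype names give Krt5 as its driver, a gene of basal squamous cells. Oesophageal cells of Krt5-SmoM2-Sox9fl/fl mice (Sox9cKO, n = 4) and of Krt5-SmoM2 mice on the CD1 strain (SmoM2, n = 6) were both taken from the EpCAM-high gate. Krt5-SmoM2-Krt8YFP mice of mixed background gave EpCAM-high cells with YFP (K8YFP+, n = 3) and without it (K8YFP-, n = 3). A time series of Krt5-SmoM2 mice gave cells of both EpCAM gates at 7w and at 3w (4 groups, n = 4 each), with the origin of the weeks not stated. Krt8YFP mice gave E13.5 oesophagus (embryo, n = 2, EpCAM and YFP), the columnar side of the junction between oesophagus and stomach (n = 4, EpCAM-high with YFP), its squamous side (n = 3, EpCAM-high without YFP), stomach and gut (n = 2 each, YFP). The reference oesophagus was wild type on CD1 (WT, n = 6), sorted as EpCAM-low. SmoM2 and WT cells thus differ in gate as well as genotype, and ages and the number of animals per library are not given in the labels used here.

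Basal cells of a squamous epithelium stand on a sheet of laminins, which are trimers of an alpha, a beta and a gamma chain. The trimer that holds the products of Lama3 and Lamb3 is the ligand of hemidesmosomes, whereas Lama5, Lamb1 or Lamb2, and Lamc1 supply the chains of the laminin-511 and laminin-521 trimers found under most epithelia. The hemidesmosome receptor is the integrin pair of Itga6 and Itgb4. Col17a1 (the bullous pemphigoid antigen BP180) spans the membrane beside it, and the epithelial products of Dst (BP230) and Plec (plectin) tie both to keratin filaments inside the cell. Loss of LAMA3, LAMB3, COL17A1, DST or PLEC function in people causes forms of skin blistering.

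RefSeq start-site windows of 300 bases (GRCm38.p6, 250 before to 50 after the start) were used for 5 of the 8 genes, 7 windows in all, among 32851 for the genome. No window was used for Lama3, Lamc1 or Plec. Shown here are 4, because their genes moved furthest among the 5 in the comparisons below, read 5′ to 3′ on the gene's strand.
Col17a1 chr19:47691993-47692292: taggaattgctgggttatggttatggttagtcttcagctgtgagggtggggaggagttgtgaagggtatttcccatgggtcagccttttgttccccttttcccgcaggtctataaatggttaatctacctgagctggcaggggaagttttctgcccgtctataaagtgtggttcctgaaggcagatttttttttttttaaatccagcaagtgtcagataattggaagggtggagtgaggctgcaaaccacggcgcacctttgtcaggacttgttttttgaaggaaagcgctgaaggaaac
Lama5 chr2:180225810-180226109: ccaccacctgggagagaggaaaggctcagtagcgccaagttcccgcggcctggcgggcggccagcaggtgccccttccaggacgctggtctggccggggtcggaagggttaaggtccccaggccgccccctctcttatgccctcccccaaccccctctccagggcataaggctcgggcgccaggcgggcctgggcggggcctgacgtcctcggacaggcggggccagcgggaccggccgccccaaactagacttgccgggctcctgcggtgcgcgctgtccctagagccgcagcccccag
Dst chr1:34160010-34160309: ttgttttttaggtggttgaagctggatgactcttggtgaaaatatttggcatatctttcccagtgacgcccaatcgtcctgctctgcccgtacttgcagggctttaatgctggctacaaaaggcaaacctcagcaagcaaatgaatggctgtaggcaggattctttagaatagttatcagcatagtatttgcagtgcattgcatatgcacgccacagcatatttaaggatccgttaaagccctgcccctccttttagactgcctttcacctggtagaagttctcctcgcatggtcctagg
Lamb3 chr1:193301993-193302292: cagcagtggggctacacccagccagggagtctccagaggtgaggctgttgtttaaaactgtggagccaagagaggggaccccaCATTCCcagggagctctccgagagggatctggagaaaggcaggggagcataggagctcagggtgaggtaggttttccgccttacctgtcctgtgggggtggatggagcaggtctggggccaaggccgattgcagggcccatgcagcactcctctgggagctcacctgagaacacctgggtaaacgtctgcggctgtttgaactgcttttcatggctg
The Dst window is the one just upstream of the internal start that GENCODE M21 gives to Dst-213, Dst-215 and Dst-217 (34160330), not that of the longest transcripts (34011825). The windows of Lama5 and Col17a1 differed in base composition, with 72.7% and 46.3% G or C, against a median of 52.7% over all windows. Capitals mark the only match, on either strand, to any of 4 motifs searched. It is a TEAD motif (CATTCC) in Lamb3 that begins 167 bases before the start, and this motif was present in 14.7% of all windows. Matches to the other 3 were absent from the 7 windows: AP-1 (TGANTCA, 7.81% of all windows), GLI (TGGGTGGTC, 0.253%) and Sox (AACAAT, 10.7%).

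On GRCm38, Lama3 lies on chromosome 18 and Lama5 on the minus strand of chromosome 2 (180176373 to 180225859). Lamb2 lies on chromosome 9 (108479736 to 108490530), Lamb3 on chromosome 1 (193207699 to 193343878), both on the plus strand, and Lamc1 on the minus strand of chromosome 1 (153218922 to 153332786). Col17a1 is on the minus strand of chromosome 19 (47646344 to 47692094), Dst on the plus strand of chromosome 1 (33908225 to 34308661) and Plec on the minus strand of chromosome 15 (76170974 to 76232574). Values are counts over whole genes, so that transcripts of 1 gene are not separated. The strand setting of the counting is not given in the sources used here, and antisense or overlapping genes may share reads with some members, by an unknown amount: Gm29200 lies within Lama3, Gm26788 within Dst, Hsd11b1 and G0s2 within Lamb3, and Parp10 overlaps Plec.

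Library totals ranged from 1.61 to 12.3 M counts, and levels are given as CPM (counts scaled by the library total). Fold changes are edgeR log2 folds with TMM scaling, which adjusts for composition, so that they can differ from a ratio of CPM. The groups carried the markers of their labels: basal squamous markers summed to a median of 2289 CPM in K8YFP+ cells, 5271 to 9395 CPM in the other adult squamous groups and 1470 CPM in embryo, against 92.9 CPM in columnar junction cells, where all 6 were detected too. Gastric markers summed to a median of 31270 CPM in columnar junction cells and 52400 CPM in stomach, and Trp63 was at 0 in stomach. Sox9, the floxed gene, had 51.7, 45.7, 127 and 45.8 CPM in Sox9cKO libraries, against a lowest, median and highest value of 72.7, 89.95 and 194 CPM in SmoM2 libraries. The highest Sox9cKO value is that of the library labelled Sox9cKO replicate 3, which lies within the SmoM2 range, and which exons are floxed is not given in the sources used here. WT replicates 3 and 5, and likewise 4 and 6, were closer to each other (with 1.83 and 2.31 as chi-square per degree of freedom) than the 13 other WT pairs (9.94 to 31.5). In each of these pairs the raw names differ only in the leading number, so that WT may hold 4 separate samples. They were kept as 6 libraries here, on which every WT n, SD and p-value rests, with the pairs summed as an alternative. Nothing in the labels says that libraries of a group came from separate animals, so p-values measure the spread between these libraries, which may be technical. In such bulk libraries, fewer cells of a type and less RNA per cell cannot be told apart.

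Col17a1 set the squamous and columnar groups furthest apart. Its group means spanned 576-fold, against 89.95-fold for Lama3, 44.0-fold for Lama5, 29.6-fold for Dst, 29.4-fold for Lamb2, 24.4-fold for Lamc1, 6.79-fold for Lamb3 and 3.32-fold for Plec. The highest mean was in Sox9cKO cells for Lama3, Lama5, Lamb2, Lamb3 and Dst, in 3w EpCAM-low cells for Col17a1, in embryo for Lamc1 and in gut for Plec. Most neighbours in these orders overlapped: only 2 of 13 neighbouring groups were apart for Col17a1, where junction squamous cells stood above K8YFP+ cells and embryo stood above columnar junction cells.

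Per kilobase of exon, Col17a1 was the most abundant member in WT oesophagus, with 252 ± 66.9 CPM per kb (SD, n = 6). Plec followed with 69.8 ± 14.1, Lamb3 with 31.5 ± 5.30, Lamc1 with 23.5 ± 6.61, Lama3 with 22.3 ± 4.29, Lama5 with 15.6 ± 3.93 and Lamb2 with 12.4 ± 0.94 CPM per kb in WT. Dst cannot be placed in this order, because its level was 38.3 ± 4.28 CPM per kb over all annotated exon bases (41155) and 179 ± 20.1 over the 8788 bases of Dst-213, the shortest transcript from the internal start. The other members were likewise divided by all annotated exon bases, so their order rests on those lengths.

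**Figure D1:**
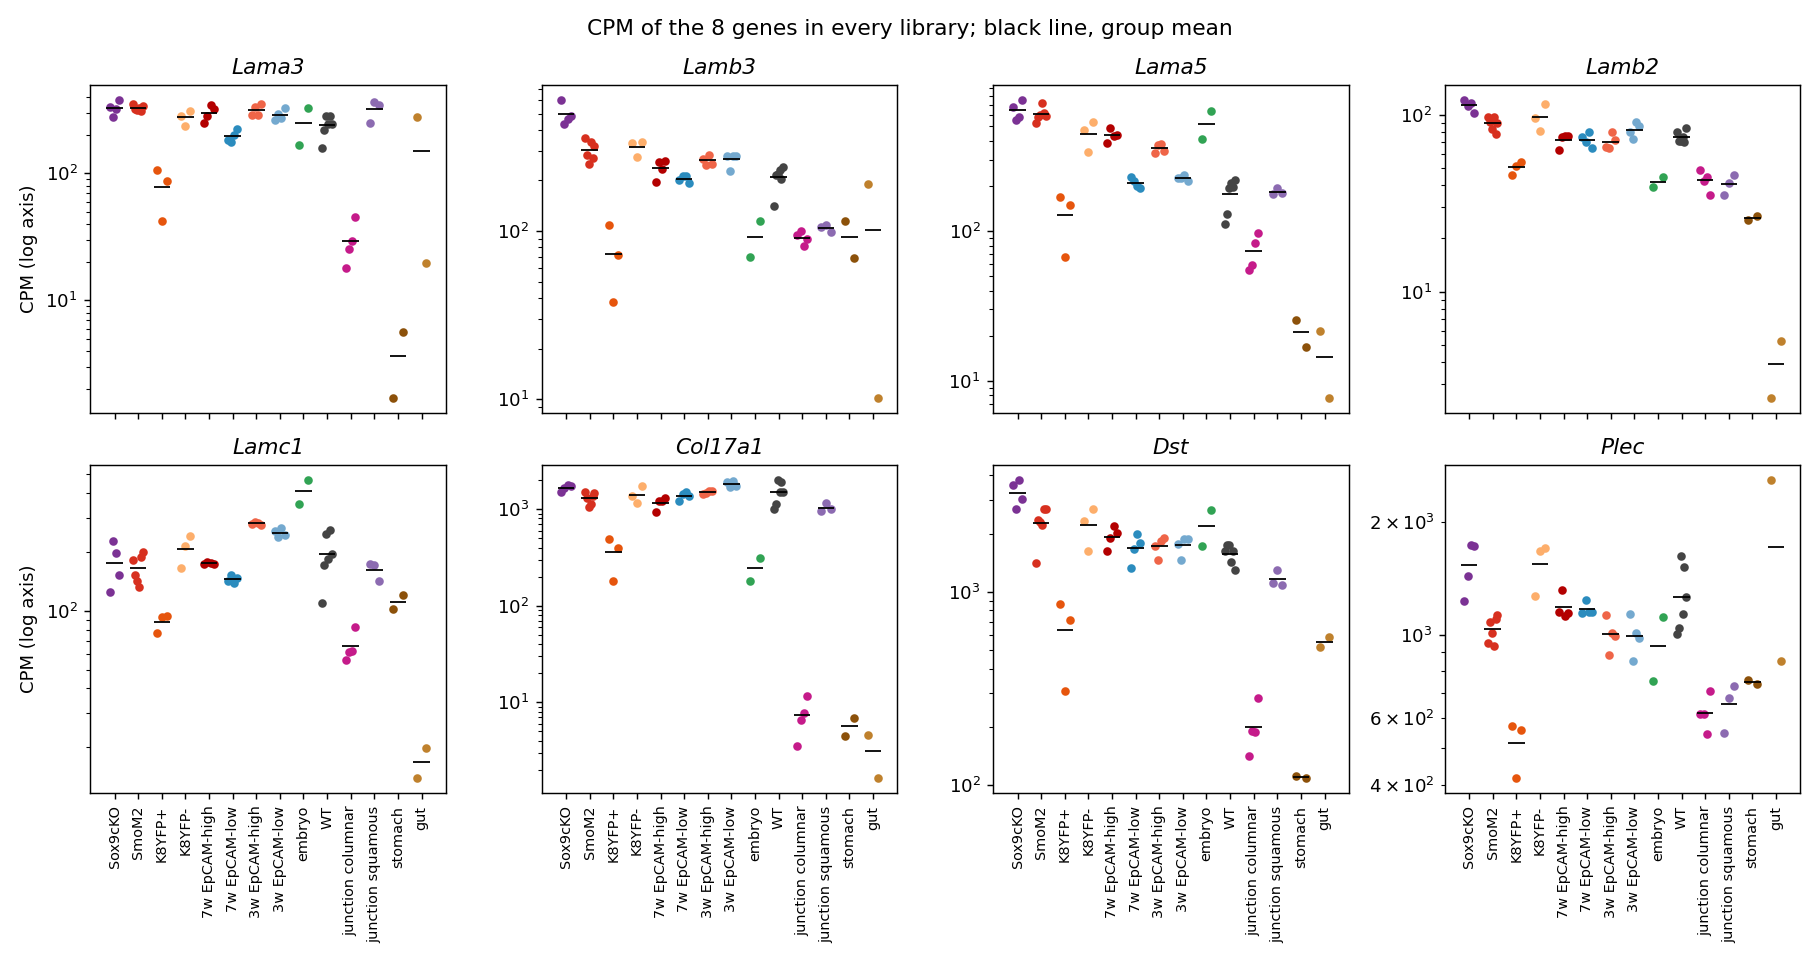
CPM of the 8 genes (log axes, which differ between panels) in each of 51 libraries, by group, with a black line at the group mean. Col17a1 lies between 944 and 2002 CPM in adult squamous groups other than K8YFP+, and between 1.65 and 11.8 CPM in columnar junction cells, stomach and gut, whereas Plec spans less than any other member.

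The K8YFP+ cells of the SmoM2 oesophagus had lower levels than K8YFP- cells for all 8 genes, with no overlap between the groups in CPM. The share of all genes without such overlap was not counted, in this or any later comparison. Of the 8, 7 fell past the test (edgeR's quasi-likelihood test, Benjamini-Hochberg adjusted p under 0.05), where 19.9% of all 15598 genes tested passed in either direction and 6.83% passed as lower. The median log2 fold of the members was -1.43, beside -0.03 over all genes tested.

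Among the chains of the hemidesmosome ligand, Lama3 had 107, 42.3 and 86.7 CPM in K8YFP+ libraries, against 285, 234 and 308 CPM in K8YFP- libraries. Lamb3 had 108, 37.97 and 72.1 CPM in K8YFP+ libraries, against 332, 274 and 339 CPM in K8YFP- libraries. The log2 fold was -1.43 ± 0.26 (SE) for Lama3 (adjusted p = 0.010) and -1.73 ± 0.28 for Lamb3 (adjusted p = 0.0075).

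Of the broadly used chains, Lama5 fell to 170, 67.2 and 150 CPM in K8YFP+ libraries, against 473, 338 and 535 CPM in K8YFP- libraries (-1.43 ± 0.29, adjusted p = 0.015). Lamc1 fell less, to 77.2, 93.4 and 93.6 CPM in K8YFP+ libraries, against 166, 214 and 243 CPM in K8YFP- libraries (-0.84 ± 0.18, adjusted p = 0.018). Lamb2, the beta chain of laminin-521, had 45.9, 51.7 and 54.0 CPM in K8YFP+ libraries and 96.9, 81.6 and 116 CPM in K8YFP- libraries, and did not pass (-0.57 ± 0.18, adjusted p = 0.061). These folds come from the fit without pairing. With the replicate number as a block, since the numbers pair these sorts, all 8 genes passed, Lamb2 with an adjusted p of 0.033. The shares of all genes given above belong to the fit without the block, and the share with it is not given here. Lamb2 also passed without K8YFP- replicate 2 (0.042).

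The hemidesmosome collagen Col17a1 had 496, 181 and 393 CPM in K8YFP+ libraries, against 1364, 1167 and 1714 CPM in K8YFP- libraries (-1.63 ± 0.30, adjusted p = 0.011). Dst had 868, 308 and 715 CPM in K8YFP+ libraries, against 2310, 1629 and 2682 CPM in K8YFP- libraries (-1.45 ± 0.33, adjusted p = 0.022). Plec had 574, 416 and 560 CPM in K8YFP+ libraries, against 1270, 1672 and 1698 CPM in K8YFP- libraries (-1.19 ± 0.16, adjusted p = 0.0042). K8YFP+ replicate 2, the shallowest of the 51 libraries, was the lowest for 6 of the 8 genes, and the 7 calls held without it. Calls ended without K8YFP- replicate 3 for Lama5 (adjusted p = 0.060), Lamc1 (0.067) and Dst (0.076), and without K8YFP+ replicate 3 for Dst (0.058).

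**Figure D2:**
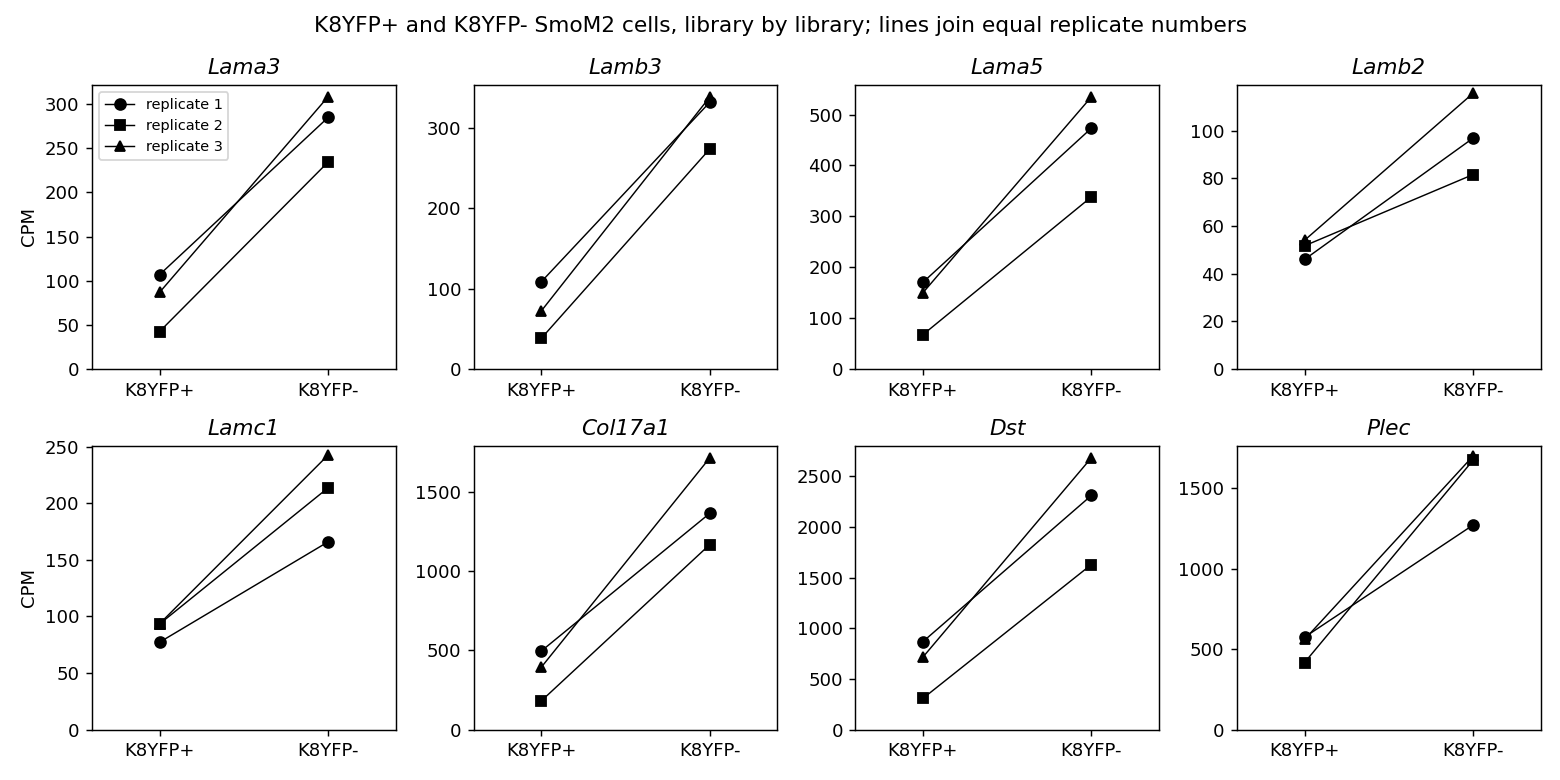
CPM of the 8 genes in K8YFP+ and K8YFP- SmoM2 cells, with a line for each of 3 replicate numbers and axes that start at 0. All 24 lines run upwards to K8YFP-, and replicate 2 is the lowest K8YFP+ point in 6 of 8 panels.

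Their partners in the anchoring complex moved the same way. Of 11 hemidesmosome partners, 8 fell in K8YFP+ cells and none rose, including Itga6 (-1.41 ± 0.15, adjusted p = 0.0025) and Itgb4 (-1.42 ± 0.19, adjusted p = 0.0041), the receptor pair. Of 18 other basement membrane genes, 11 were tested, 4 fell (Col4a5, Col4a6, Hspg2 and Agrn) and Nid1 rose. The 4 other plakins measured all rose in K8YFP+ cells: Dsp, Macf1, Ppl (1.84 ± 0.19, adjusted p = 0.0025) and Evpl (1.64 ± 0.16, adjusted p = 0.0025). Dsp, Ppl and Evpl encode plakins of desmosomes and the cornified envelope, at contacts between cells, whereas Dst and Plec serve the basal face. Basal squamous markers summed to 1987 to 3113 CPM in K8YFP+ and 5156 to 8909 CPM in K8YFP- libraries, with 4 of 6 lower and none at 0. Squamous differentiation markers summed to 21730 to 31020 CPM in K8YFP+ and 6077 to 8459 CPM in K8YFP- libraries, with 7 of 8 higher. Fibroblast markers summed to 324 to 690 CPM in K8YFP+ and 380 to 406 CPM in K8YFP- libraries, with 5 of 9 tested higher. The lists share genes: Krt5 and Krt14 count both as partners and as basal squamous markers, and Ppl and Evpl both as plakins and as differentiation markers. The part of these marker shifts in the members' result was not tested.

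Set against the columnar side of the junction, K8YFP+ cells had more transcripts of most of these genes. Genotype and the leading number of the raw names differ between these groups, as does the tissue, and cannot be told apart. Of the 8 genes, 6 were higher in K8YFP+ cells and none lower, where 60.8% of 22370 genes passed in either direction and 27.4% as higher. Col17a1 was at 181 to 496 CPM in K8YFP+ cells, against 3.54 to 11.8 CPM in columnar junction cells (log2 fold 6.02 ± 0.29, adjusted p = 7.3e-22), and Dst was at 308 to 868 CPM in K8YFP+ cells, against 142 to 280 CPM in columnar junction cells (2.07 ± 0.22, adjusted p = 5.2e-11). These 2 were also the members whose groups did not overlap, and the share of all genes without overlap was not counted. Lama3 (1.87 ± 0.38), Lama5 (1.23 ± 0.22), Lamc1 (0.84 ± 0.20) and Lamb2 (0.65 ± 0.13) were higher too, whereas Lamb3 (0.11 ± 0.36, adjusted p = 0.81) and Plec (0.15 ± 0.21, adjusted p = 0.55) did not pass. K8YFP+ cells lay between columnar junction cells and K8YFP- cells in mean CPM for 6 of the 8 genes, and had the lowest mean of all 14 groups for Lamb3 and Plec.

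Markers of several cell types moved in the same comparison. Basal squamous markers summed to 1987 to 3113 CPM in K8YFP+ and 62.4 to 160 CPM in columnar junction libraries, with 6 of 6 higher, and squamous differentiation markers to 21730 to 31020 CPM in K8YFP+ and 88.1 to 155 CPM in columnar junction libraries, with 8 of 8 higher. Fibroblast markers summed to 324 to 690 CPM in K8YFP+ and 64.5 to 84.2 CPM in columnar junction libraries, with 10 of 10 higher, and muscle markers to 9.70 to 238 CPM in K8YFP+ and 10.3 to 19.4 CPM in columnar junction libraries, with 6 of 7 higher. All 9 gastric markers were lower in K8YFP+ cells. No marker of these lists was at 0 in either group, and their part in the members' result was not tested.

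Within the normal junction, the columnar side had lower levels of 7 of the 8 genes than the squamous side, where 74.4% of 17185 genes passed in either direction and 35.2% as lower. Col17a1 had 3.54, 6.64, 7.70 and 11.8 CPM in columnar libraries, against 950, 1161 and 998 CPM in squamous libraries (-7.46 ± 0.26, adjusted p = 6.8e-10). Lama3 had 17.99, 25.4, 29.2 and 45.2 CPM in columnar libraries, against 251, 366 and 347 CPM in squamous libraries (-3.77 ± 0.24, adjusted p = 8.6e-08). Dst had 142, 189, 188 and 280 CPM in columnar libraries, against 1112, 1303 and 1077 CPM in squamous libraries (-2.86 ± 0.19, adjusted p = 1.0e-07). These 3 genes, with Lama5 (-1.63 ± 0.17) and Lamc1 (-1.62 ± 0.13), did not overlap between the sides. How many of all genes did not overlap was not counted.

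Lamb3 and Plec changed far less across the junction, and their columnar and squamous libraries overlapped in CPM. Lamb3 had 95.0, 99.9, 81.7 and 89.1 CPM in columnar libraries, against 106, 108 and 98.6 CPM in squamous libraries (-0.50 ± 0.09, adjusted p = 0.00045). It did not pass in a fit of all 14 groups (adjusted p = 0.24). Plec had 615, 616, 545 and 711 CPM in columnar libraries, against 548, 680 and 732 CPM in squamous libraries (-0.38 ± 0.12, adjusted p = 0.011). It did not pass without junction squamous replicate 3 (0.058) or in a fit of all 14 groups (0.14). Lamb2 did not pass (-0.23 ± 0.14, adjusted p = 0.14), and the raw names give the sides different leading numbers, so that side and whatever that number stands for cannot be told apart. Of 11 hemidesmosome partners, 8 were lower on the columnar side, with Krt14 (-8.75 ± 0.21, adjusted p = 7.2e-11) among them, and 2 were higher. The 4 other plakins measured were all lower, with Ppl (-3.405 ± 0.13, adjusted p = 1.1e-09) among them.

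Stomach and gut cells, with 2 libraries each, give levels only. In stomach, Col17a1 had 4.46 and 6.89 CPM, Lama3 1.71 and 5.64 CPM, and Plec 759 and 741 CPM. The gut libraries disagreed with each other: replicates 1 and 2 had 281 and 19.6 CPM of Lama3, 191 and 10.2 CPM of Lamb3, and 2580 and 850 CPM of Plec, so the gut means of these genes describe neither library. Col17a1 was low in both gut libraries, at 4.63 and 1.65 CPM.

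**Figure D3:**
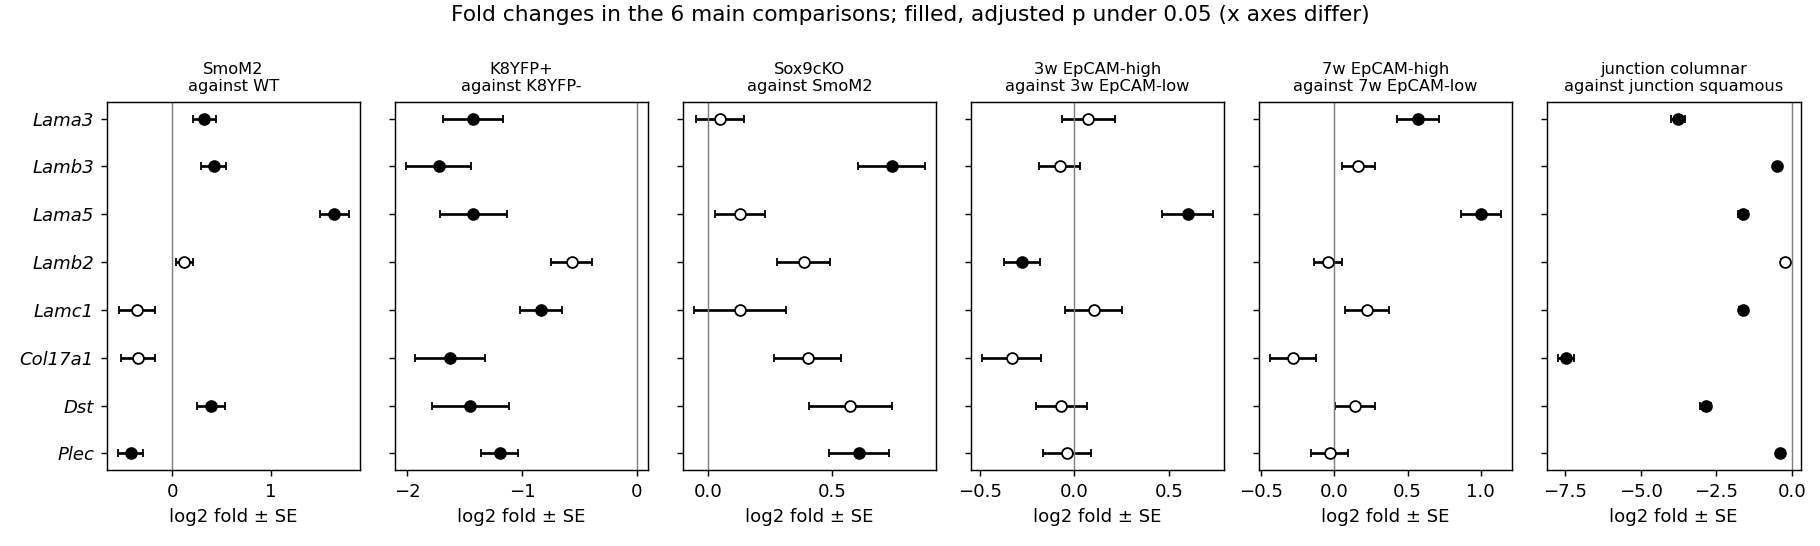
log2 fold ± SE (edgeR) of the 8 genes in 6 comparisons, with filled points past an adjusted p of 0.05 and x axes that differ between panels. All points lie left of 0 for K8YFP+ against K8YFP- and for junction columnar against junction squamous, and Lama5 lies furthest right in SmoM2 against WT and in both EpCAM-high against EpCAM-low panels.

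SmoM2 cells compared with WT cells had a large rise in Lama5 and small changes in the rest. Genotype, EpCAM gate and the leading number of the raw names all differ between these groups and cannot be told apart. Of the 8 genes, 4 were higher and 1 lower in SmoM2 cells, where 49.5% of 16224 genes tested passed in either direction, 26.2% as higher and 23.3% as lower. The members' share passing (5 of 8) was thus close to that of all genes, and their median log2 fold was 0.23, beside 0.01 over all genes.

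Lama5, the alpha chain of laminin-511, had a lowest, median and highest value of 531, 588 and 714 CPM in SmoM2 libraries, against 112, 196 and 221 CPM in WT libraries. The ranges are far apart, with a log2 fold of 1.64 ± 0.14 (3.11-fold, adjusted p = 3.6e-07), and the call held under all 18 alternatives. Lama3 had 311, 325 and 355 CPM in SmoM2 libraries, against 160, 247 and 285 CPM in WT libraries (0.33 ± 0.12, adjusted p = 0.035). Lamb3 had 251, 301 and 356 CPM in SmoM2 libraries, against 141, 216 and 239 CPM in WT libraries (0.42 ± 0.13, adjusted p = 0.012). Neither of these pairs of ranges overlaps. The ratio of Lama3 to Lama5 per kb within a library was 0.58 ± 0.08 in SmoM2 libraries and 1.46 ± 0.22 in WT libraries (SD, n = 6 each). It was thus lower in SmoM2 libraries. Whether a ratio lies above or below 1 depends on the exon lengths used, here all annotated exon bases of each gene (10745 for Lama3).

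Dst had 1409, 2326 and 2681 CPM in SmoM2 libraries, against 1298, 1621 and 1741 CPM in WT libraries (0.39 ± 0.14, adjusted p = 0.031), and SmoM2 replicate 1 lay within the WT range. Plec was the member that fell, to 935, 1046 and 1132 CPM in SmoM2 libraries, against 1008, 1197 and 1625 CPM in WT libraries (-0.42 ± 0.13, adjusted p = 0.013). Lamb2 (0.13 ± 0.08, adjusted p = 0.23), Lamc1 (-0.35 ± 0.18, 0.12) and Col17a1 (-0.34 ± 0.17, 0.11) did not pass.

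WT replicate 1 was the lowest WT library for Lama3, Lama5, Lamb3, Lamc1, Col17a1 and Plec. Without it Lamc1 (adjusted p = 0.013) and Col17a1 (0.029) passed as lower in SmoM2 cells. The Lama3 call ended without any 1 of WT replicates 1, 2, 4 and 6 and SmoM2 replicates 1 and 6 (adjusted p 0.052 to 0.072), and with the WT pairs summed (0.051). The Dst call ended without any 1 of WT replicates 4, 5 and 6 and SmoM2 replicates 2, 5 and 6 (0.052 to 0.077), and with the WT pairs summed (0.13). Without a filter the calls of Lama3 (0.11) and Dst (0.079) ended, and in a fit of all 14 groups those of Lama3 (0.38), Lamb3 (0.21) and Dst (0.065) ended and Lamc1 passed as lower (0.025).

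The partners moved in both directions. Itga6 fell (-0.66 ± 0.12, adjusted p = 0.00045), and Itgb4 did not pass (-0.13 ± 0.10, adjusted p = 0.31). Of 11 hemidesmosome partners, 4 rose (Itga3, Bcam and Dag1, which encode laminin receptors, and Fermt1) and 3 fell (Itga6, Krt5 and Krt14). Of 13 other basement membrane genes tested, 7 rose and 1 fell, with Col4a1 (6.58 ± 0.38) and Col4a2 (6.61 ± 0.42), the chains of collagen IV, having the smallest p. Fibroblast markers summed to 341 to 617 CPM in SmoM2 and 69.3 to 143 CPM in WT libraries, with 2 of 7 tested higher and 2 lower. Squamous differentiation markers summed to 5424 to 8745 CPM in SmoM2 and 10840 to 24130 CPM in WT libraries, with 3 of 8 lower and 1 higher. Simple epithelial markers summed to 23.5 to 79.7 CPM in SmoM2 and 5.77 to 8.02 CPM in WT libraries, with 4 of 4 tested higher. None of these sums overlapped, and the part of the markers in these results was not tested.

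**Figure D4:**
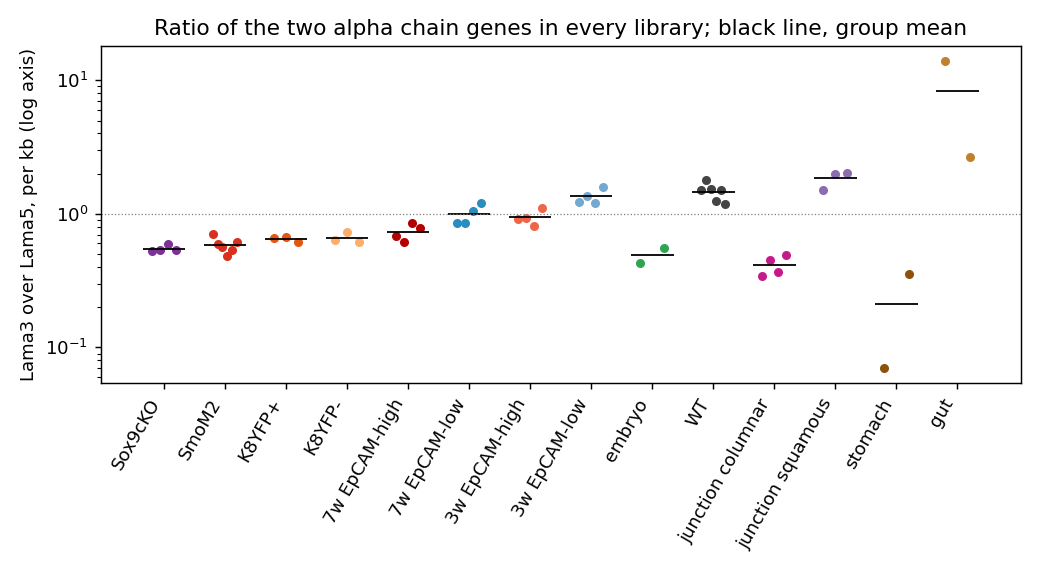
Ratio of Lama3 to Lama5 in each library, per kb of exon, on a log axis, with a black line at the group mean and a dotted line at 1. The 6 SmoM2 libraries lie between 0.48 and 0.71 and the 6 WT libraries between 1.19 and 1.78, with the time-series groups between 0.61 and 1.60.

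Sox9cKO cells had higher Lamb3 and Plec than SmoM2 cells of the same gate. These 2 of the 8 genes passed, both as higher, where 2.66% of 17047 genes passed in either direction and 1.18% as higher. The members' median log2 fold was 0.39, beside 0.00 over all genes tested. Lamb3 had 603, 430, 461 and 482 CPM in Sox9cKO libraries, against a lowest, median and highest value of 251, 301 and 356 CPM in SmoM2 libraries (0.74 ± 0.13, 1.67-fold, adjusted p = 0.013). Plec had 1228, 1436, 1735 and 1722 CPM in Sox9cKO libraries, against 935, 1046 and 1132 CPM in SmoM2 libraries (0.61 ± 0.12, adjusted p = 0.021). For both genes every Sox9cKO library was above every SmoM2 library, and the share of all genes apart in this way was not counted.

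Lamb2 and Col17a1 were apart in the same way without passing. Lamb2 had 122, 112, 117 and 102 CPM in Sox9cKO libraries, against 77.8, 90.8 and 97.8 CPM in SmoM2 libraries (0.39 ± 0.11, adjusted p = 0.073). Col17a1 had 1506, 1660, 1770 and 1743 CPM in Sox9cKO libraries, against 1049, 1328 and 1506 CPM in SmoM2 libraries (0.40 ± 0.14, adjusted p = 0.13), so that its groups touched at 1506 CPM. Dst had 3548, 2671, 3791 and 3024 CPM in Sox9cKO libraries, against 1409, 2326 and 2681 CPM in SmoM2 libraries (0.58 ± 0.17, adjusted p = 0.086). Lama3 (0.05 ± 0.10), Lama5 (0.13 ± 0.10) and Lamc1 (0.13 ± 0.19) did not pass, with adjusted p from 0.52 to 0.83.

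Without the library labelled Sox9cKO replicate 3, in which Sox9 was within the SmoM2 range, Lamb3 passed (0.76, adjusted p = 0.038) and Plec did not (0.52, adjusted p = 0.070). Plec also missed the threshold without SmoM2 replicate 2 (0.052) or 3 (0.051), Lamb2 passed without SmoM2 replicate 1 (0.044), and Dst passed without Sox9cKO replicate 2 (0.035). In a fit of all 14 groups Lamb3 did not pass (0.092). SmoM2 replicate 1 has another leading number in its raw name than the other 9 libraries, and without it Lamb3 (0.82, adjusted p = 0.0062) and Plec (0.61, adjusted p = 0.030) passed. Of the partners, Itgb4 rose in Sox9cKO cells (0.49 ± 0.09, adjusted p = 0.015), and the collagen IV genes Col4a1 (-1.88 ± 0.29) and Col4a2 (-1.86 ± 0.27) fell. Sox9cKO and WT cells both had SmoM2 cells as the other side of these comparisons, so the folds share libraries. Simple epithelial markers summed to 11.3 to 13.03 CPM in Sox9cKO and 23.5 to 79.7 CPM in SmoM2 libraries, without overlap and with 3 of 5 lower (Krt7, Krt18 and Krt20), and their part in the members' result was not tested.

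In the time series, Lama5 separated the EpCAM gates within the Krt5-SmoM2 genotype. At 3w it had 331, 375, 382 and 341 CPM in EpCAM-high libraries, against 228, 228, 238 and 215 CPM in EpCAM-low libraries (0.60 ± 0.13, adjusted p = 0.0026). At 7w it had 389, 489, 430 and 436 CPM in EpCAM-high libraries, against 230, 217, 201 and 195 CPM in EpCAM-low libraries (1.00 ± 0.13, adjusted p = 2.5e-06). The gates did not overlap at either time, and both calls held under all 14 alternatives.

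Lama3 separated the gates at 7w, with 249, 282, 346 and 324 CPM in EpCAM-high libraries, against 185, 176, 200 and 222 CPM in EpCAM-low libraries (0.57 ± 0.14, adjusted p = 0.0030). At 3w it did not pass (0.08 ± 0.14, adjusted p = 0.79). The test of the difference between the times (interaction of gate and week) did not pass for Lama3 (0.50 ± 0.20, adjusted p = 0.25) or Lama5 (0.40 ± 0.19, adjusted p = 0.36), nor for any other member, where 2.31% of 17263 genes passed. In that test edgeR and DESeq2 each called 0 members, and 2 had an unadjusted edgeR p under 0.05. In a fit of the 16 time-series libraries without WT, Lama3 (adjusted p = 0.047) and Lama5 (0.0098) passed. With the replicate number as a block, Lama3 (2.5e-05), Lama5 (0.00074) and Dst (0.024) passed. Libraries of equal replicate number deviated together (residual correlation over 0.1) in every pair at 3w and in 3 of 4 pairs at 7w.

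Altogether 2 of the 8 genes passed between the gates at 3w, 1 each way (15.2% of 17263 genes did, 7.37% as higher and 7.84% as lower) and 2 at 7w (32.3%, and 15.5% as higher). The second at 3w was Lamb2, which fell to 65.8, 64.9, 80.4 and 72.2 CPM in EpCAM-high libraries, against 79.8, 73.3, 91.0 and 86.7 CPM in EpCAM-low libraries (-0.28 ± 0.09, adjusted p = 0.047). That call ended without any 1 of EpCAM-high replicates 1, 2 and 4 and EpCAM-low replicates 1, 3 and 4 (adjusted p 0.057 to 0.14), under RLE size factors (0.057), without a filter (0.14) and with the WT pairs summed (0.0504). The replicate numbers pair the 3w gates. With the block Lamb2 passed (7.7e-05), and Lamc1 (adjusted p = 0.033) and Col17a1 (5.2e-10) passed there as well. Col17a1 had 1424, 1470, 1520 and 1553 CPM in 3w EpCAM-high libraries, against 1899, 1672, 1935 and 1736 CPM in 3w EpCAM-low libraries. The log2 fold of Col17a1 without the block was -0.33 ± 0.16 in the fit with WT (adjusted p = 0.16). In a fit of the 3w groups alone, also without the block, Col17a1 passed (-0.32, adjusted p = 0.00017). Lamc1 did not overlap between the gates at either time. At 7w it had 173 to 177 CPM in EpCAM-high and 138 to 153 CPM in EpCAM-low libraries, without passing in the fit with WT. It passed in a fit of the 7w groups alone (adjusted p = 0.0077). With the block at 7w, Lamb3 (0.030), Lamc1 (0.0016) and Dst (0.027) passed as higher and Col17a1 (0.0014) as lower. Dst and Plec had adjusted p of at least 0.465 between the gates at both times without the block. Outside the members, Lamb1 (1.68 ± 0.13 at 7w) and the perlecan gene Hspg2 (1.99 ± 0.14 at 7w) rose in EpCAM-high cells.

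Markers of other cell states and types moved with the gate, as did Ptch1 and Gli1, genes of the Hedgehog pathway. Mean Ptch1 was 843 CPM in EpCAM-high and 112 CPM in EpCAM-low cells at 3w. At 7w it was 1773 CPM in EpCAM-high and 89.4 CPM in EpCAM-low cells. Mean Gli1 was 106 CPM in EpCAM-high and 16.6 CPM in EpCAM-low cells at 3w, and 167 and 8.35 CPM at 7w. Fibroblast markers summed to 351 to 417 CPM in EpCAM-high and 79.7 to 107 CPM in EpCAM-low libraries at 7w, and to 245 to 284 CPM in EpCAM-high and 112 to 129 CPM in EpCAM-low libraries at 3w. Of the 9 tested, 1 (Fbln1) was higher in EpCAM-high cells at each time. Squamous differentiation markers summed to 4955 to 6807 CPM in EpCAM-high and 13070 to 15240 CPM in EpCAM-low libraries at 7w, with 4 of 8 lower. At 3w they summed to 3278 to 3793 CPM in EpCAM-high and 5305 to 6083 CPM in EpCAM-low libraries, with 2 of 8 lower and 1 higher. The gates did not overlap in these sums, and the part of the markers, Ptch1 and Gli1 in the gate results was not tested.

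At 7w the gamma chain Lamc1 was lower than at 3w in both gates. In EpCAM-high cells it fell to 174, 177, 177 and 173 CPM at 7w, against 278, 284, 283 and 276 CPM at 3w (-0.73 ± 0.15, adjusted p = 0.00047). In EpCAM-low cells it fell to 142, 153, 138 and 147 CPM at 7w, against 258, 239, 265 and 246 CPM at 3w (-0.85 ± 0.15, adjusted p = 0.00012). The weeks did not overlap in either gate.

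In EpCAM-low cells 5 of the 8 genes were lower at 7w than at 3w and none higher, where 38.0% of genes passed in either direction and 18.4% as lower. Beside Lamc1 these were Lama3 (-0.62 ± 0.14, adjusted p = 0.0013), Lamb3 (-0.45 ± 0.11, 0.0027), Col17a1 (-0.45 ± 0.16, 0.025) and Lamb2 (-0.25 ± 0.09, 0.042). Without 1 library the Col17a1 call ended for 3w EpCAM-low replicates 1 and 3 and 7w EpCAM-low replicate 1 (0.052 to 0.088). The Lamb2 call ended without 3w EpCAM-low replicate 3 or 4 or 7w EpCAM-low replicate 1, 2 or 4 (0.074 to 0.11), and without a filter (0.17). In EpCAM-high cells 2 of the 8 were lower at 7w, where 41.4% of genes passed in either direction and 19.4% as lower: Lamc1, and Col17a1 (-0.40 ± 0.16, adjusted p = 0.041). The Col17a1 call there ended without any 1 of 7 of the 8 libraries (0.054 to 0.15), all but 7w EpCAM-high replicate 4. Squamous differentiation markers summed to 13070 to 15240 CPM at 7w and 5305 to 6083 CPM at 3w in EpCAM-low libraries, with 6 of 8 higher and 1 lower at 7w. In EpCAM-high libraries they summed to 4955 to 6807 CPM at 7w and 3278 to 3793 CPM at 3w, with 4 of 8 higher. The part of these markers in the members' results was not tested. The weeks have different leading numbers in the raw names, so that week and whatever that number stands for cannot be told apart.

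**Figure D5:**
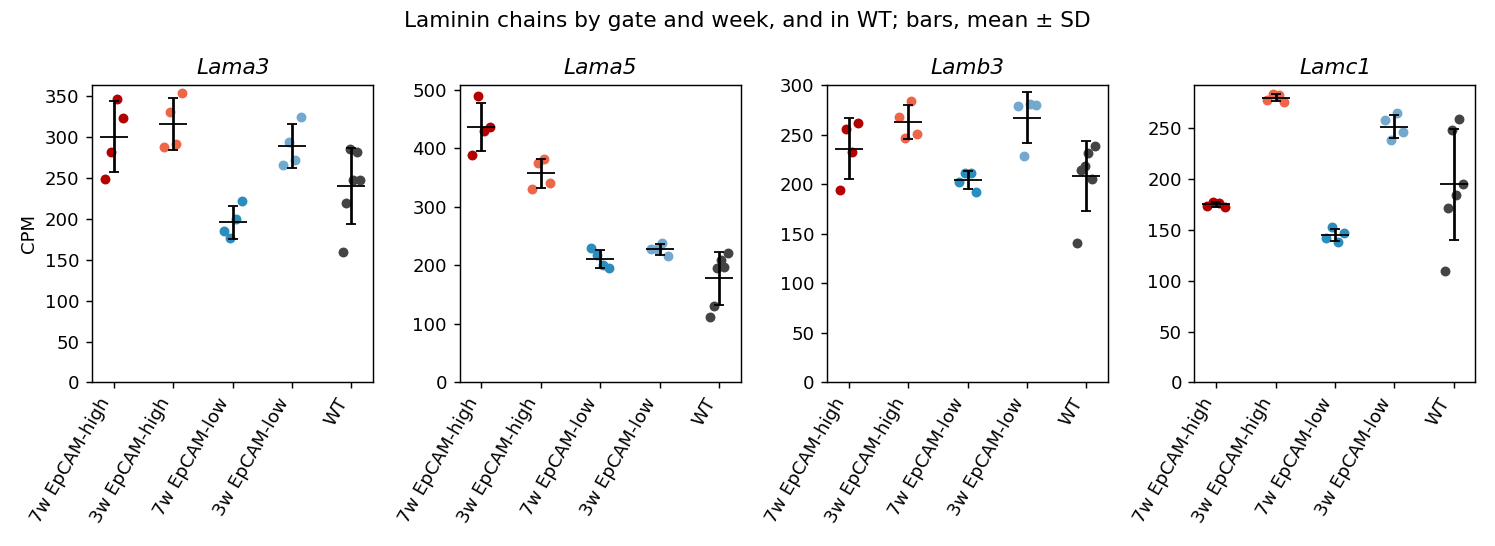
CPM of Lama3, Lama5, Lamb3 and Lamc1 in the time-series groups and WT, with points for libraries, bars at the mean ± SD and axes from 0. Lama5 separates the gates at both weeks. Lamc1 separates the weeks in both gates, with 138 to 177 CPM at 7w and 239 to 284 CPM at 3w. The gates did not overlap in Lamc1 at either week, with EpCAM-high libraries above EpCAM-low libraries.

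Krt5-SmoM2 and WT cells of the EpCAM-low gate share the gate but not the leading number of the raw names, so that genotype and whatever that number stands for cannot be told apart. Mean Ptch1 was 112 CPM in 3w EpCAM-low, 89.4 CPM in 7w EpCAM-low and 19.0 CPM in WT cells, beside 1390 CPM in EpCAM-high SmoM2 cells. Mean Gli1 was 16.6, 8.35, 0.70 and 220 CPM in the same order. The part of these levels in the members' results was not tested. At 7w, 2 of the 8 genes passed, both lower, where 40.4% of genes passed in either direction and 21.0% as lower: Lamc1 (-0.54 ± 0.14, adjusted p = 0.0034) and Lama3 (-0.41 ± 0.13, adjusted p = 0.015). At 3w, 3 of the 8 passed, where 47.4% of genes did, 23.1% as higher and 24.3% as lower: Lama5 (0.30 ± 0.12, adjusted p = 0.044) and Lamb3 (0.30 ± 0.10, 0.015) as higher and Plec (-0.41 ± 0.12, 0.0055) as lower. All of these ranges overlapped with WT. Lama5 had a log2 fold over WT of 0.13 ± 0.12 in 7w EpCAM-low cells, 0.30 ± 0.12 in 3w EpCAM-low cells and 1.64 ± 0.14 in the EpCAM-high SmoM2 cells, comparisons that share the WT libraries and differ from each other in that number too. Squamous differentiation markers summed to 13070 to 15240 CPM in 7w EpCAM-low, 5305 to 6083 CPM in 3w EpCAM-low and 10840 to 24130 CPM in WT libraries. Of these 8 markers, 3 were lower than in WT at 7w, and 7 were lower and 1 higher at 3w, and their part in the members' results was not tested.

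Single libraries and settings decided some of these calls against WT. At 7w Lama3 ended without 7w EpCAM-low replicate 1 or 2 (adjusted p 0.051 to 0.063), with the WT pairs summed (0.058) and in a fit of those groups alone (0.052). At 7w Lamb3 (0.020), Col17a1 (0.031) and Plec (0.041 to 0.048) passed as lower without WT replicate 1, and Plec also without WT replicate 2. Without a filter Col17a1 (0.048) and Plec (0.044) passed as lower at 7w. At 3w Lama5 ended without WT replicate 1 or 2 or any 1 of the 4 EpCAM-low libraries (0.062 to 0.085), without a filter (0.061) and in a fit of those groups alone (0.13), where Plec ended too (0.051). At 3w Lamb3 ended without 3w EpCAM-low replicate 4 (0.054), and Lamc1 passed as higher without WT replicate 3 or 5 (0.0092 to 0.013) and with the WT pairs summed (0.022).

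The embryonic oesophagus, a columnar epithelium at E13.5, differed from WT oesophagus in the levels of several of these genes. Stage, genotype and sort (EpCAM and YFP in embryo, EpCAM-low in WT) all differ between these groups and cannot be told apart. Of the 8 genes, 2 were higher and 4 lower in embryo than in WT, where 64.0% of 22370 genes passed in either direction, 36.1% as higher and 27.8% as lower. Lama5 had 412 and 632 CPM in embryo, against a lowest, median and highest value of 112, 196 and 221 CPM in WT (1.03 ± 0.22, adjusted p = 7.7e-05), and Lamc1 had 355 and 468 CPM in embryo, against 109, 190 and 259 CPM in WT (0.55 ± 0.19, adjusted p = 0.012). Both calls ended without embryo replicate 2 (0.059 for Lama5 and 0.37 for Lamc1), and that of Lamc1 also in a fit of those groups alone (0.088). Col17a1 had 180 and 310 CPM in embryo, against 1003, 1506 and 2002 CPM in WT (-3.15 ± 0.31, adjusted p = 6.9e-12). Lamb3 (-1.70 ± 0.41), Lamb2 (-1.37 ± 0.15) and Plec (-0.96 ± 0.24) were lower too. Lama3 (-0.47 ± 0.39, adjusted p = 0.29) and Dst (-0.05 ± 0.23, 0.86) did not pass, and without embryo replicate 2 the Lama3 fold moved to -1.10 without passing. Scaling by RLE size factors moved the median of all genes in this comparison by 0.10 on the log2 scale and turned the sign of Dst (0.06), and left the direction of the others as given.

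Markers of other cell types also differed between embryo and WT. Fibroblast markers summed to 287 and 445.5 CPM in embryo, against 69.3 to 143 CPM in WT libraries, with 6 of 10 higher and 1 lower. Muscle markers summed to 63.8 and 68.0 CPM in embryo, against 6.09 to 14.1 CPM in WT libraries, with 5 of 7 higher. Neural markers summed to 8.68 and 9.71 CPM in embryo, against 1.12 to 3.78 CPM in WT libraries, with 4 of 5 tested higher and 1 lower. Intestinal markers summed to 16.9 and 181 CPM in embryo, against 2.47 to 3.42 CPM in WT libraries, with 7 of 7 higher. The embryo libraries differed in them, with a lowest and highest value of 0.183 and 41.9 CPM for Cdx2 and 6.78 and 81.4 CPM for Vil1. Simple epithelial markers (5 of 5 higher), gastric markers (5 of 9 higher) and squamous differentiation markers (8 of 8 lower) moved as well. The part of these markers in the members' results, among them the higher Lama5 and Lamc1, was not tested.

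The genes most like each member across the 14 group means (Pearson r of log2(CPM + 1) over 14159 genes with a mean of at least 10 CPM in some group) are a description of groups that share library types and depth. For Col17a1 these were Ptprz1 and Serpinb10 (r = 0.993 each) and AC117245.4 (0.991). For Lamb3 the nearest was Itgb4, the integrin chain of hemidesmosomes (r = 0.962). Lama5 was nearest to Gm16156 (0.986), Slc12a4 (0.984) and Ptk7 (0.982), Lamb2 to Foxp2 (0.980) and Lamc1 to Rnf4 (0.977). The nearest to Lama3 was Gm29200 (0.982), and the nearest to Dst was Gm26788 (0.978), which lie within these genes on the opposite strand, so that shared reads cannot be told apart from shared levels. Plec had no neighbour above Coro1c (0.834). Among the members themselves, Lama3 and Dst were most alike (r = 0.94).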

How the data were processed

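Total RNA of sorted mouse cells was sequenced by the authors from Ovation Solo libraries on a NovaSeq instrument, per the labels' protocols. The deposited values are read counts per gene, made with STAR 2.5.3a and HTSeq, per the submitters' processing notes, which list edgeR, GRCm38 and mm10 too. For the gene annotation release and the strand setting, nothing is given in the sources used here. Symbols and coordinates came from GENCODE M21 (52403 of 52636 identifiers matched), and RefSeq (GRCm38.p6) gave the start-site windows.

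CPM are counts over the library total (1.61 to 12.3 M), with SD. Folds, with SE, came from edgeR 4.0.16 in R 4.3.3 (quasi-likelihood F test, two-sided, TMM, filterByExpr with a minimum count of 10 and a total of 15), Benjamini-Hochberg adjusted over all genes tested in each of 13 comparisons. The junction sides, Sox9cKO against SmoM2, K8YFP+ against K8YFP-, and SmoM2 against WT had a fit of their own, the time-series contrasts with WT in 1 fit of 22 libraries, and embryo against WT and K8YFP+ against junction columnar in 1 fit of 51. The fits were tested on simulated data. Alternatives were RLE size factors, no filter, DESeq2 1.42.0, another set of groups in the fit, a replicate block, WT pairs summed, and each library left out (72 fits). Libraries of equal replicate number deviated together, with residual correlations over 0.1 in every pair, between the K8YFP sorts (0.285 to 0.399) and between the 3w gates (0.129 to 0.29), so the numbers pair those libraries. Between the 7w gates 3 of 4 pairs were over 0.1 (0.042 to 0.149), so pairing is uncertain there. The folds and the shares of all genes printed are from the fits without the block. For the K8YFP sorts and the gates at both weeks the blocked values are given where they change a call.

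The 8 genes and the lists of other chains, partners, plakins and markers were chosen with earlier results of these data known. Named beside them are Itga6 and Itgb4, and the called list genes with the smallest p (2 in each main comparison). The nearest of the 3 genes most like each member is named, and all 3 for Col17a1 and Lama5. Ptch1 and Gli1 were added after their values were seen. Others are named with counts of 5 or fewer after their values were seen. A further gene of these lists is not reported here.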

Additional observations from a re-analysis of the deposited data

Results flagged for a closer look

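Within-group spread was examined in 64 combinations of a member and a group of 4 to 10 libraries, where chance marks about 1 in 20. In 6 of them the most extreme library lay far from its neighbours relative to the range of the group. WT replicate 1 had 141 CPM of Lamb3, with the next WT library at 205 CPM, and SmoM2 replicate 1 had 1410 CPM of Dst, with the next SmoM2 library at 2210 CPM. Replicate 1 of 7w EpCAM-high cells had 63.0 CPM of Lamb2, with the next library at 75.1 CPM, and replicate 2 of 3w EpCAM-low cells had 229 CPM of Lamb3, with the next at 279 CPM. For Plec the marked libraries were the highest: replicate 2 of 7w EpCAM-high cells had 1320 CPM and replicate 2 of 7w EpCAM-low cells 1240 CPM, each with the next library at 1150 CPM.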

How the results depend on the processing

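Of 1536 fold values of the members under alternatives, 1389 kept their direction and side of the threshold, 81 lost it, 42 gained it and 24 changed sign. Under DESeq2, 100 of 104 did not change. The number of the 8 genes passing was 5 in SmoM2 against WT, and 3 without a filter, in a fit of all 14 groups, with the replicate block and with WT pairs summed. In Sox9cKO against SmoM2 it was 2, 4 under DESeq2 and 0 with the block. Between the 3w gates it was 2, 1 under RLE, without a filter and with WT pairs summed, and 4 with the block. Between the 7w gates it was 2, and 6 with the block, where 3 of 4 residual correlations were over 0.1 (0.042 to 0.149) and pairing is uncertain. The interaction had 0 (edgeR), 2 without WT and 3 with the block. In 7w against 3w EpCAM-high cells it was 2, and 4 in a fit of those groups alone, where Lama5 as higher (0.019) and Lamb3 as lower (0.043) passed too. In 3w EpCAM-low against WT it was 3, and 1 both with those groups alone and with the block. In 7w EpCAM-low against WT it was 2, 4 without a filter, 1 with those groups alone and with WT pairs summed, and 0 with the block. The cause was not tested. The shares of all genes passing given in the Results belong to the main fits, and those under these alternatives are not given here.

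Leaving out 1 library gave 3 to 6 in SmoM2 against WT, 4 to 8 in K8YFP+ against K8YFP-, 1 to 3 in Sox9cKO against SmoM2, 1 to 2 between the 3w gates, 2 between the 7w gates, 1 to 2 in 7w against 3w EpCAM-high, 3 to 5 in 7w against 3w EpCAM-low, 1 to 4 in 3w EpCAM-low against WT and 1 to 5 in 7w EpCAM-low against WT. Signs changed only for folds that did not pass: without a filter for Lamb2 in 7w against 3w EpCAM-high (0.031), and under RLE (0.058) and DESeq2 (0.058) for Dst in embryo against WT. With 1 library left out, log2 folds that crossed 0 ranged from -0.030 to 0.27 for Lamc1 in Sox9cKO against SmoM2, from -0.14 to 0.0012 for Dst and from -0.10 to 0.031 for Plec between the 3w gates, and from -0.079 to 0.023 for Lamb2 between the 7w gates. In the interaction they ranged from -0.019 to 0.14 for Col17a1 and from -0.049 to 0.084 for Plec. Over time they ranged from -0.047 to 0.056 for Lamb2 in EpCAM-high and from -0.19 to 0.013 for Dst in EpCAM-low cells. Against WT, Dst ranged from -0.11 to 0.092 in 7w EpCAM-low cells and from -0.45 to 0.13 in embryo, and Lamb3 ranged from -0.23 to 0.42 in K8YFP+ against columnar junction cells. Groups of 2 to 4 libraries limit the precision of all of these.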
